A study of Homo sapiens with 10 samples.

Results

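A set of 9 genes that write, copy or remove cytosine methylation was followed from human ESCs to NECs, and its members were taken as the rows of the RNA-seq count table that carry their symbols. The members, 9 of the 31017 genes in the table, are *DNMT1*, *DNMT3A*, *DNMT3B*, *DNMT3L*, *TET1*, *TET2*, *TET3*, *UHRF1* and *TDG*. In the PCHi-C data their promoters were the baited HindIII fragments that hold the gene start. Such a bait was found for 8 of the 9 genes, among 21833 baits in all, and the exception was *DNMT3B*. ESCs were the undifferentiated line H9 (WA09), grown in Pluripro media and matrix, and NECs were neuroectodermal cells derived from the same line and harvested as spheres on day 7. H9 is 1 cell line from 1 donated embryo, so the 2 biological replicates of each cell type and assay describe that line. PCHi-C enriches a Hi-C library, which records ligated pairs of DNA fragments that lay close together in the nucleus, for pairs that contain a promoter. RNA-seq was single-end sequencing of polyadenylated RNA.

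Methyl groups on the cytosine of CpG dinucleotides are placed on unmethylated DNA by the de novo methyltransferases DNMT3A and DNMT3B, with DNMT3L as a partner that has no catalytic activity of its own. After replication the pattern is copied to the new strand by DNMT1, which UHRF1 brings to hemimethylated CpGs. The TET enzymes oxidise methylcytosine, and TDG removes the more oxidised bases so that repair can restore an unmethylated cytosine. Pluripotent cells are known for high levels of DNMT3B and TET1.

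The promoters of 3 genes are shown because *TET1* and *TET2* moved in opposite directions and *UHRF1* was the member whose libraries overlapped between cell types. Each sequence runs 5′ to 3′ along the gene's strand, from 250 bases before the gene start to 50 bases from it, was read from GRCh37 and has its CpG dinucleotides in capitals. The windows are chr10:70320163-70320462 for *TET1*, chr4:106066782-106067081 for *TET2* and chr19:4909260-4909559 for *UHRF1*, all on the forward strand.
TET1: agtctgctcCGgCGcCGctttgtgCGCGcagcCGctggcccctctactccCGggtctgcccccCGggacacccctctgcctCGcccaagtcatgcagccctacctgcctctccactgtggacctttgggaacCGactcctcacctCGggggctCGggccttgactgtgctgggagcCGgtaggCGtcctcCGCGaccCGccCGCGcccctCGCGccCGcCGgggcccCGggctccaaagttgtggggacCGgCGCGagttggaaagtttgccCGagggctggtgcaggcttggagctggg
TET2: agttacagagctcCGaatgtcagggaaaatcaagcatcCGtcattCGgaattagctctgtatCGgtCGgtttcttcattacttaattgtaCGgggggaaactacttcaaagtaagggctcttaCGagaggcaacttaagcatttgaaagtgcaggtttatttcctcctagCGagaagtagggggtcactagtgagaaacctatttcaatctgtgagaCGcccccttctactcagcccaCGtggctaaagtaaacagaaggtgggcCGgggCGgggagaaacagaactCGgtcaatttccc
UHRF1: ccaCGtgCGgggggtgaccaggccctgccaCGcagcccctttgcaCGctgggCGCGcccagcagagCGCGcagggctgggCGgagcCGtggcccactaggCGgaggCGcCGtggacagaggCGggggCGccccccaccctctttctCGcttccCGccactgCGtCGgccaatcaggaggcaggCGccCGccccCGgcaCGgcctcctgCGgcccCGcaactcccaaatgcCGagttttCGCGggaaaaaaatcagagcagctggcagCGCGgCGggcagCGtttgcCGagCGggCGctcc

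The *TET2* window is the sparsest of the 7 member windows described here in CpG, with 13 against 28 for *TET1* and 35 for *UHRF1*. The other 4 held 15 for *DNMT1*, 18 for *DNMT3A*, 21 for *TDG* and 34 for *TET3*. Over the windows of 18799 protein-coding genes the median was 18, with quartiles of 6 and 29, so all 7 lay above the lower quartile and 2 of them, *TET3* and *UHRF1*, above the upper quartile. The windows of *DNMT3B* and *DNMT3L* are not reported here. Letters known from common promoter elements were searched on both strands. The GC box GGGCGG, which Sp factors bind, was present in *TET1*, *TET2*, *TET3* and *UHRF1*, and in 52.4% of all windows. CCAAT was present in *DNMT1*, *TET3*, *UHRF1* and *TDG*, and in 35.7% of all windows. The letters TTTCCCGC, one form of the site of the cell cycle factors E2F, were in *UHRF1* alone among the 7 and in 1.9% of all windows, and the related TTTGGCGC was in none of the 7 and in 0.7% of all windows. TATAAA was in none of the 7 and in 10.2% of all windows. These are matches of letters, and no factor binding was measured.

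Expression is given as CPM, the reads of a gene scaled to a common library total after TMM, a method that sets the bulk of genes level between libraries. Library totals ranged from 19234087 to 25356382 reads. Changes were fitted with edgeR's quasi-likelihood test over the 17564 genes with enough reads, with p-values adjusted by Benjamini-Hochberg over all of them. A gene passed at an adjusted p under 0.05 and was called when its log2 fold change also exceeded 1.5 in size. All 9 enzymes had enough reads to be tested. The labels of both cell types were borne out by their markers: all 10 pluripotency markers were lower in NECs, all 10 neuroectoderm markers were higher, and none of the pluripotency markers reached 0 reads in NECs. Of 10 neural crest markers 6 passed with higher RNA and 1 with lower RNA. Their summed level was 149 and 137 CPM in the ESC libraries and 218 and 115 CPM in the NEC libraries. *ETS1* gave 106.5 and 105.4 CPM of the ESC sums, and *NGFR* gave 78.4 and 78.9 CPM of the NEC sums. NEC replicate 1 thus held more neural crest RNA than NEC replicate 2, and the part of that RNA in these results was not tested. Of 9 mesendoderm markers tested 8 were lower in NECs, and their summed level was 92.7 CPM in ESC replicate 1, 221 CPM in ESC replicate 2 and 8.38 and 8.47 CPM in the NEC libraries. ESC replicate 2, without which *TET2* was not called and *DNMT3A* and *TET3* did not pass, thus held more mesendoderm RNA than ESC replicate 1, and the part of that RNA in these results was not tested. Both ESC libraries came from one sequencing lane and the NEC libraries from another, so lane and cell type cannot be told apart.

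Among the 9 enzymes, 2 passed with higher RNA in NECs and 5 with lower RNA, where 31.5% and 29.7% of all genes tested passed in those directions. *TET2* was called higher, and *DNMT3B* and *DNMT3L* were called lower, where 11.4% and 9.68% of all genes were called. *DNMT1* and *UHRF1* did not pass. A fit that leaves out 1 library keeps 1 sample of that cell type, which is then assumed to vary like the 2 libraries of the other. Without ESC replicate 2 the members that passed numbered 1 higher and 4 lower, and *TET2* was not called. The median log2 fold change of the 9 was −0.49, against 0.01 over all genes tested. Because the cells were measured in bulk, fewer cells expressing a gene and less RNA per cell cannot be told apart.

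**Figure D1:**
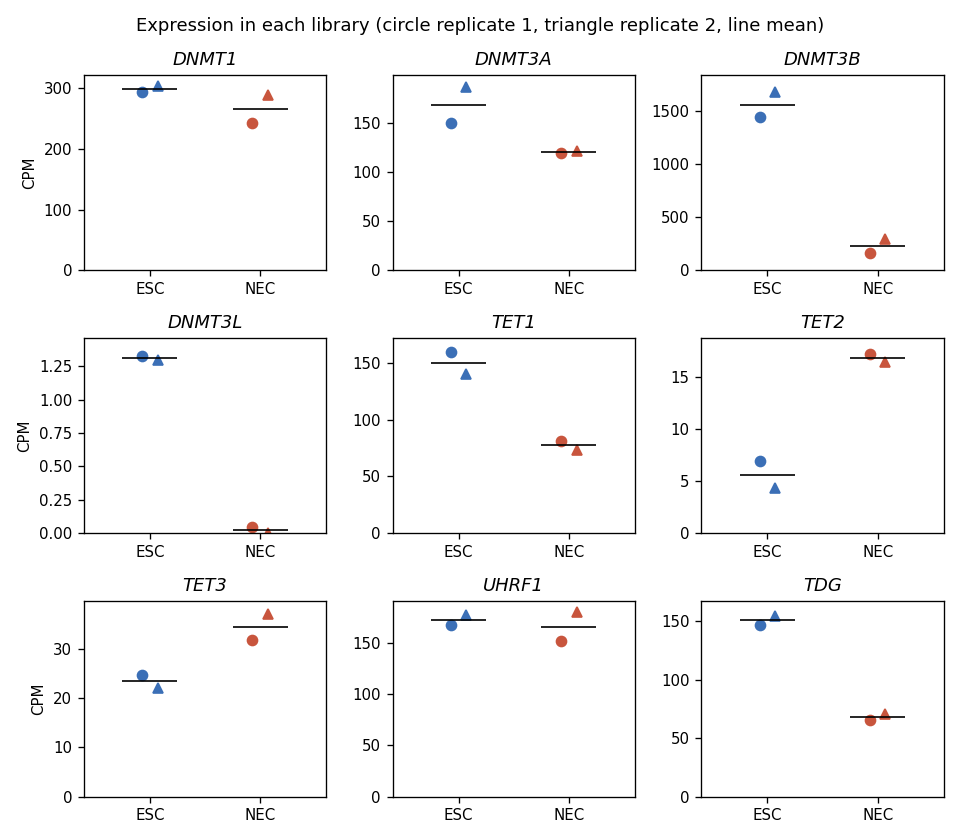
Expression of each enzyme in CPM (vertical axes, linear and starting at 0) in the ESC and NEC libraries. Circles are replicate 1, triangles are replicate 2 and lines are means. The ESC and NEC points lie apart for every gene except *UHRF1*, and the *DNMT3B* points fall from 1438 and 1676 CPM to 159 and 296 CPM. Points that lie apart are not by themselves a change, since those of *DNMT1* do so and the gene did not pass. The share of all genes whose points lie apart was not counted.

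*DNMT3B*, the de novo methyltransferase typical of pluripotent cells, showed the greatest loss of RNA among the well expressed enzymes. Its level was 1438 and 1676 CPM in ESC replicates 1 and 2 and 159 and 296 CPM in NEC replicates 1 and 2. Both NEC libraries lay far below both ESC libraries, and NEC replicate 2 retained more of the transcript than NEC replicate 1. The means were 1557 ± 168 CPM in ESCs and 228 ± 96.5 CPM in NECs (SD, n = 2), a 6.85-fold difference. The edgeR log2 fold change was −2.77 (SE 0.29, 95% interval −3.48 to −2.07, adjusted p = 0.000442).

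The same NEC replicate 2 also held more RNA of pluripotency genes. *POU5F1*, the core pluripotency factor OCT4, was at 31.0 CPM in NEC replicate 1 and 111 CPM in NEC replicate 2, against 1482 and 1438 CPM in the ESC libraries. The summed level of the 10 pluripotency markers was 925 and 1375 CPM in the NEC libraries and 5525 and 5761 CPM in the ESC libraries. Of these sums, *LIN28A* alone gave 729 and 941 CPM in the NEC libraries and 1361 and 1329 CPM in the ESC libraries. *LIN28A* fell least of the 10 markers, with a log2 fold change of −0.69. Without NEC replicate 2 the log2 fold change of *DNMT3B* was −3.29, and without NEC replicate 1 it was −2.39, with the gene called in both cases. The part of the remaining pluripotency RNA in the level of *DNMT3B* in NECs was not tested.

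*DNMT3A*, the other catalytic de novo enzyme, fell much less. It was at 149.5 and 186 CPM in the ESC libraries and at 119 and 121 CPM in the NEC libraries. The groups did not overlap, but the ESC replicates differed from each other by more than the lower of them differed from the NEC libraries. The log2 fold change was −0.49 (SE 0.12, 95% interval −0.77 to −0.20, edgeR adjusted p = 0.0124), and without ESC replicate 2 it was −0.33 and no longer passed (adjusted p = 0.0958).

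*DNMT3L*, the noncatalytic partner of the de novo enzymes, was weakly expressed in ESCs and nearly absent from NECs. It had 25 and 32 reads in the ESC libraries, and 1 and 0 reads in the NEC libraries. Set against a floor of 3 reads per library, its RNA was at least 9.996-fold lower in NECs (edgeR adjusted p = 0.00081). The count table gives *MX2*, on the opposite strand, a span that covers *DNMT3L*, and reads were counted without regard to strand, so a few of these reads could belong to another gene.

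The levels of the de novo enzymes stood closer to each other in NECs. On the scale of CPM per kb of exon, which allows levels of different genes to be compared, *DNMT3B* stood 12.1-fold and 11.4-fold above *DNMT3A* in the ESC libraries. The same ratio of levels was 1.69 and 3.08 in the NEC libraries. *DNMT3B* made up 85.0% and 85.3% of the summed CPM per kb of *DNMT1*, *DNMT3A* and *DNMT3B* in ESCs, and 43.5% and 56.3% in NECs. The sum itself was 246 and 286 CPM per kb in ESCs and 53.2 and 76.4 CPM per kb in NECs.

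The maintenance pair showed no change that passed the test. *DNMT1*, which copies methylation after replication, was at 294 and 304 CPM in the ESC libraries and at 243 and 289 CPM in the NEC libraries. NEC replicate 2 lay just below the ESC libraries and NEC replicate 1 further down. The log2 fold change was −0.17 (SE 0.11, 95% interval −0.44 to 0.10) and did not pass in edgeR's test (adjusted p = 0.23). Without NEC replicate 2 the value was −0.30 and passed (adjusted p = 0.0219).

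*UHRF1*, which recruits DNMT1 to hemimethylated CpGs, was at 168 and 178 CPM in the ESC libraries and at 152 and 181 CPM in the NEC libraries. The groups overlapped, with the highest and the lowest values both in NECs. The log2 fold change was −0.06 (SE 0.11, 95% interval −0.32 to 0.20, edgeR adjusted p = 0.668), and the interval leaves room for a modest change in either direction. The ratio of *UHRF1* to *DNMT1* in CPM per kb was between 1.89 and 2.07 in the 4 libraries with the length of all exons, and between 1.052 and 1.149 with that of the longest transcript.

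The 10 partners of maintenance methylation were examined as a list. Of these, 2 passed with higher RNA in NECs, 4 with lower RNA and 4 did not pass, with a median log2 fold change of −0.20. These shares lie near the 31.5% and 29.7% of all genes. The genes that fell were *CDCA7L* (log2 fold change −1.22, adjusted p = 0.000135), the chromatin remodeller *HELLS* (−1.10, adjusted p = 0.00069), the deubiquitinase *USP7* (−0.75, adjusted p = 0.00136) and the HELLS partner *CDCA7* (−0.66, adjusted p = 0.00215), all by edgeR. *HELLS* was at 147 ± 14.3 CPM in ESCs and 68.5 ± 10.2 CPM in NECs (SD, n = 2). The genes that rose were the DNA ligase *LIG1* (0.58, edgeR adjusted p = 0.00139) and *UHRF2*, the paralogue of *UHRF1* (0.42, edgeR adjusted p = 0.0188). *PCNA*, the replication clamp on which maintenance takes place, had a log2 fold change of −0.18 and did not pass (edgeR adjusted p = 0.174). Among 14 proliferation genes, 2 passed with higher RNA, 6 with lower RNA and 6 did not pass, with a median log2 fold change of −0.17. Their summed level was 4359 and 4407 CPM in ESCs and 3879 and 4387 CPM in NECs. The count of partners that passed with higher RNA was 1 without ESC replicate 1, ESC replicate 2 or NEC replicate 2, and without ESC replicate 2 the proliferation genes numbered 1 higher and 3 lower.

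The TET enzymes, which oxidise methylcytosine, went in different directions. *TET1* was at 159 and 140 CPM in the ESC libraries and at 81.2 and 73.4 CPM in the NEC libraries. Every ESC library lay well above every NEC library. Its log2 fold change was −0.95 (SE 0.10, 95% interval −1.20 to −0.70, edgeR adjusted p = 0.000517), short of the fold change needed for a call.

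*TET2*, which lacks the CXXC DNA-binding domain that TET1 and full-length TET3 carry, was the scarcest TET enzyme in ESCs and rose. It was at 6.89 and 4.33 CPM in the ESC libraries and at 17.2 and 16.4 CPM in the NEC libraries. The NEC replicates lay close together and above both ESC replicates, which were further apart. The means were 5.61 ± 1.81 CPM and 16.8 ± 0.54 CPM (SD, n = 2), a 2.995-fold difference. The log2 fold change was 1.59 (SE 0.24, 95% interval 1.03 to 2.16, edgeR adjusted p = 0.00159), and without ESC replicate 2 it was 1.28, which passed the test but fell below the fold change needed for a call. The antisense gene *TET2-AS1* overlaps *TET2*, and the counts cannot separate them.

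*TET3*, the family member best known from the zygote and from neural tissue, rose by a smaller step. It was at 24.6 and 22.1 CPM in the ESC libraries and at 31.7 and 37.0 CPM in the NEC libraries. The groups did not overlap. The fit gave a log2 fold change of 0.56 (SE 0.13, 95% interval 0.26 to 0.86, edgeR adjusted p = 0.00856), and it did not pass without ESC replicate 2 (0.47, adjusted p = 0.0583).

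The mix of TET transcripts differed between the cell types. *TET1* stood 41.0-fold and 57.4-fold above *TET2* in CPM per kb in the ESC libraries, and 8.39-fold and 7.93-fold above it in the NEC libraries. With the longest transcript as the length, these ratios were 25.3 and 35.4 in ESCs and 5.18 and 4.89 in NECs. Its level relative to *TET3* was 4.06 and 3.98 in ESCs and 1.61 and 1.25 in NECs. *TET1* nevertheless remained the most abundant of the 3 per kb in every library, with 78.7% and 78.8% of their summed level in ESCs and 57.5% and 51.9% in NECs.

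*TDG*, the glycosylase that excises oxidised methylcytosine, fell with the smallest standard error of the 9. It was at 147 and 155 CPM in the ESC libraries and at 65.7 and 70.4 CPM in the NEC libraries. The replicates of each cell type lay close together and the groups lay far apart. The fit gave a log2 fold change of −1.15 (SE 0.09, 95% interval −1.36 to −0.93, edgeR adjusted p = 0.000146).

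**Figure D2:**
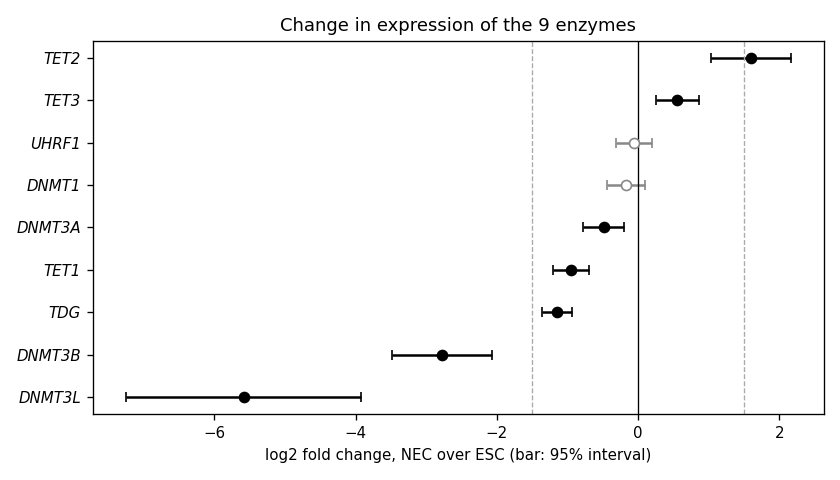
Log2 fold change of each enzyme, NECs over ESCs, from edgeR (points) with 95% intervals (bars). Filled points passed at an adjusted p under 0.05, and dashed lines mark a log2 fold change of 1.5 in either direction. *TET2* lies beyond the upper line, *DNMT3B* and *DNMT3L* beyond the lower one, and the fitted value of *DNMT3L* rests on 1 read in NECs and is no bound.

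The order of the enzymes by CPM per kb also differed between cell types. In ESCs it ran from *DNMT3B* (a mean of 226.5) through *UHRF1* (38.4), *TDG* (30.9), *DNMT1* (20.1), *DNMT3A* (19.4), *TET1* (16.1), *TET3* (4.005) and *DNMT3L* (0.70) to *TET2* (0.34). *DNMT1* and *DNMT3A* overlapped between replicates and had no clear order. In NECs the order was *UHRF1* (36.9), *DNMT3B* (33.1), *DNMT1* (17.9), *TDG* (13.9), *DNMT3A* (13.8), *TET1* (8.33), *TET3* (5.88), *TET2* (1.02) and *DNMT3L* (0.01). The first 2 overlapped between replicates, as did *TDG* and *DNMT3A*. With the length of the longest transcript in place of all exons, *DNMT3B* had the highest mean in both cell types. Its mean was 356 CPM per kb in ESCs and 52.1 CPM per kb in NECs. In NECs its replicates (36.4 and 67.7) still overlapped those of *UHRF1* (39.1 and 46.4), so the 2 had no clear order. With that length *DNMT1* moved from 20.1 to 41.8 CPM per kb in ESCs. That length also put *TDG* (47.4) above *UHRF1* (44.5) in ESCs and *DNMT3A* (26.8) above *TDG* (21.4) in NECs, with no overlap between replicates in either case.

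The proteins that read methylated CpGs rose where they passed the test. Of 10 readers, 5 passed with higher RNA in NECs, 0 passed with lower RNA and 5 did not pass, with a median log2 fold change of 0.36. Over all genes tested 31.5% passed higher and 29.7% lower. Among those that rose by edgeR were *MBD5* (0.97, adjusted p = 0.00151) and *MBD6* (0.65, adjusted p = 0.00159). *MBD6* was at 27.3 ± 0.47 CPM in ESCs and 42.7 ± 1.22 CPM in NECs (SD, n = 2). None was lower at an unadjusted p under 0.05 in edgeR, nor past the threshold in DESeq2's test. The count of readers that passed with higher RNA was 4 or 5 with any 1 library left out.

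The listed base excision repair genes, which include glycosylases other than TDG, passed at shares near those of all genes (31.5% higher and 29.7% lower). Of 12 base excision repair genes, 3 passed with higher RNA, 4 with lower RNA and 5 did not pass, with a median log2 fold change of −0.04. The scaffold *XRCC1* (0.82, adjusted p = 0.000826), the glycosylase *NEIL2* (0.66, adjusted p = 0.0225) and the uracil glycosylase *SMUG1* (0.63, adjusted p = 0.00315) rose by edgeR. The glycosylase *NTHL1* (−0.62, adjusted p = 0.00228), the abasic site nuclease *APEX1* (−0.54, adjusted p = 0.00254) and the uracil glycosylase *UNG* (−0.47, adjusted p = 0.0128) fell by edgeR. Without ESC replicate 2 the counts were 2 higher and 2 lower.

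Genes that supply or regulate the TET enzymes held the greatest rise of the pathway lists. Of 10, 3 passed with higher RNA, 4 with lower RNA and 3 did not pass, with a median log2 fold change of −0.05, where 31.5% and 29.7% of all genes passed in those directions. *CXXC4*, which encodes a CXXC protein (IDAX) whose DNA-binding domain belonged to an ancestral TET2 gene, was at 3.13 and 2.87 CPM in the ESC libraries and at 43.9 and 39.9 CPM in the NEC libraries. The groups were far apart and the fold difference was 14.0 (log2 fold change 3.81 with an SE of 0.14, edgeR adjusted p = 1.41e-05). The mitochondrial isocitrate dehydrogenase *IDH2*, which makes the TET cosubstrate 2-oxoglutarate, rose from 61.8 and 51.7 CPM to 190.2 and 168 CPM (log2 fold change 1.66, edgeR adjusted p = 0.000118). Its cytosolic counterpart *IDH1* fell (−0.92, edgeR adjusted p = 0.00233), and so did *IDH3A*, a subunit of the NAD-dependent enzyme (−1.62, edgeR adjusted p = 0.000181). *OGT*, a glycosyltransferase that binds TET proteins, rose (0.57, edgeR adjusted p = 0.00159), and *GADD45B* fell (−0.78, edgeR adjusted p = 0.0182). Without ESC replicate 2 the counts were 3 higher and 2 lower.

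Genes of one-carbon metabolism, which provides the methyl donor S-adenosylmethionine, were examined as a list of 12. Of these, 1 passed with higher RNA, 6 with lower RNA and 5 did not pass, with a median log2 fold change of −0.23, against 31.5% higher and 29.7% lower among all genes. The folate enzyme *MTHFD1* fell from 305 ± 9.36 CPM to 109 ± 15.3 CPM (SD, n = 2; log2 fold change −1.48, edgeR adjusted p = 0.00016). The methionine synthase reductase *MTRR* (−0.83, adjusted p = 0.00303) and the serine hydroxymethyltransferase *SHMT2* (−0.66, adjusted p = 0.00508) also fell by edgeR. The gene that passed with higher RNA did not do so without ESC replicate 1, without NEC replicate 1 or in DESeq2's test. 

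**Figure D3:**
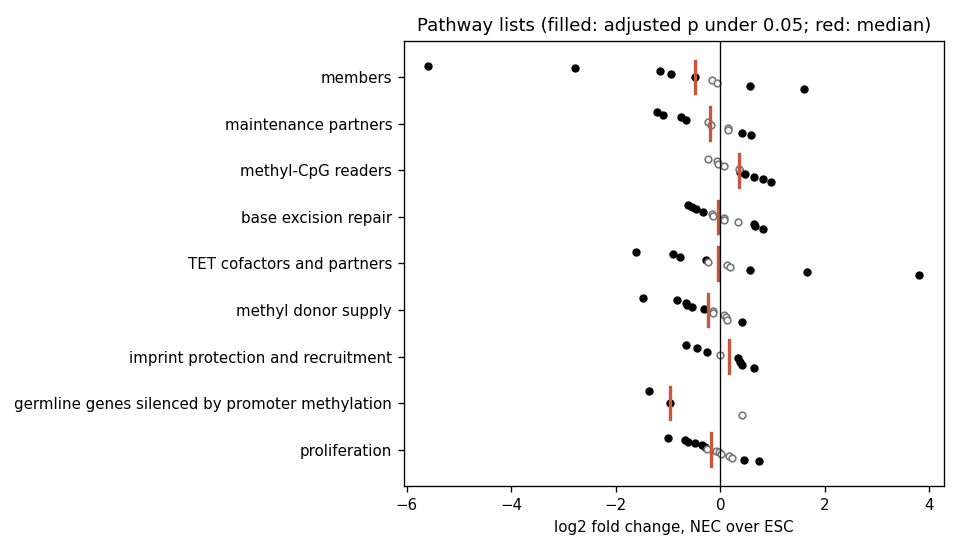
Log2 fold change, NECs over ESCs (horizontal axis), of the tested genes of each list, 1 point per gene, with filled points for an adjusted p under 0.05 and a red line at the median of the list. The methyl-CpG readers have no filled point below 0, and *CXXC4* is the rightmost point among the TET cofactors and partners, at 3.81.

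In the PCHi-C data, promoter-interacting regions (PIRs) were the HindIII fragments paired with a bait at a CHiCAGO score of at least 12. The score weighs a p-value for the pair by its distance, and because it comes without read numbers the depth of a call is unknown. Each replicate has a list of its own, and each cell type has a merged list called on both replicates together. The 8 baited promoters had 24 PIRs in the merged ESC list and 26 in the merged NEC list, 10 of them the same fragments, which is 41.7% of the ESC set and 38.5% of the NEC set. The number per promoter had a median of 2 in ESCs and 2.5 in NECs against 2 for all baits in either cell type. The share of PIRs common to both cell types was not counted over all baits, so it cannot be called particular to these promoters.

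ESC replicates 1 and 2 taken singly gave 24 and 29 PIRs, and the NEC replicates gave 23 and 12. At each of the 8 promoters the range of the ESC replicates met the range of the NEC replicates, so no promoter had a difference in PIR number beyond the spread between replicates. Of 80 distinct fragments contacted in any list, 1 was called in all 4 replicates, 5 in 3, 6 in 2 and 57 in 1, and 11 were called only in a merged list. The 2 ESC replicates shared 12.8% of their combined PIRs and the 2 NEC replicates 16.7%. Replicates of different cell types shared between 2.9% and 18.2%. No member PIR lay on another chromosome, 29 of the 80 fragments were baits themselves, and 52 overlapped an exon. These shares and those between replicates were not counted over all baits either.

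**Figure D4:**
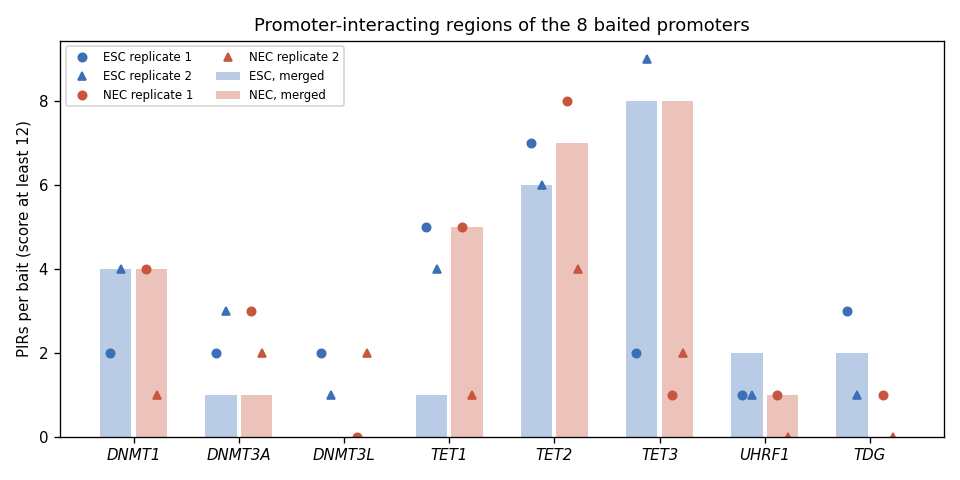
Number of PIRs (score at least 12) of the 8 baited promoters. Bars are the merged lists of ESCs (blue) and NECs (red), and points are the single replicates (circle replicate 1, triangle replicate 2). The points of the 2 cell types overlap at every promoter, and *TET2* and *TET3* have the most PIRs in the merged lists.

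Among the 8 baited promoters, only *TET2* had a contact called in all 4 replicates. From its bait, chr4:106064152-106068261, a fragment 328 kb downstream at chr4:106393316-106394503, which overlaps an exon of *PPA2*, was called in all 4 replicates with scores of 13.6 and 13.5 in ESCs and 15.2 and 16.03 in NECs. *PPA2* encodes a mitochondrial pyrophosphatase. The adjoining fragment, chr4:106394504-106396537, holds the *PPA2* start and is a bait itself, and it called the *TET2* start fragment in all 4 replicates with scores of 18.5 and 21.2 in ESCs and 25.9 and 16.4 in NECs. From the *TET2* bait, that adjoining fragment was called in no replicate and only in the merged NEC list (12.39). Contacts between *TET2* and the *PPA2* start region were thus called from both baits in both cell types, but for neighbouring fragments. The same pair of fragments was called from both sides only in the merged NEC list. *PPA2* was at 45.5 and 42.8 CPM in ESCs and at 52.0 and 51.9 CPM in NECs, and its log2 fold change of 0.24 did not pass (edgeR adjusted p = 0.0581).

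On the other side, *TET2* contacted the *CXXC4* locus. The fragment chr4:105411790-105414767, 653 kb upstream, overlaps *CXXC4* and holds the start of the antisense gene *AC004053.1*. It was called with a score of 13.5 in ESC replicate 2 and with 15.9 and 14.1 in NEC replicates 1 and 2, and was in the merged NEC list (18.96) but not in the merged ESC list. With that fragment as the bait, the *TET2* start fragment was called in both NEC replicates, at 13.8 and 15.3, and in neither ESC replicate. The neighbouring fragment with the *CXXC4* start, chr4:105415164-105418098, was called from the *TET2* bait in the merged NEC list alone (13.03). The call in ESC replicate 2 means that contact with the locus was not limited to NECs, and scores under 12 are not in the lists. Both *TET2* and *CXXC4* had more RNA in NECs, and *CXXC4* was also on the list of TET partners. The counts of *CXXC4* and *AC004053.1* cannot be separated because strand was not used, and *CXXC4* and *PPA2* were picked out here after their contacts had been seen.

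A further *TET2* contact, with an intergenic bait at chr4:105339743-105346636, was called in both NEC replicates (12.4 and 12.2, merged 13.4) and in neither ESC replicate. Conversely, chr4:105830087-105837216, in lncRNA genes 233 kb upstream, was called in both ESC replicates (13.8 and 12.3, merged 15.4) and in neither NEC replicate.

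**Figure D5:**
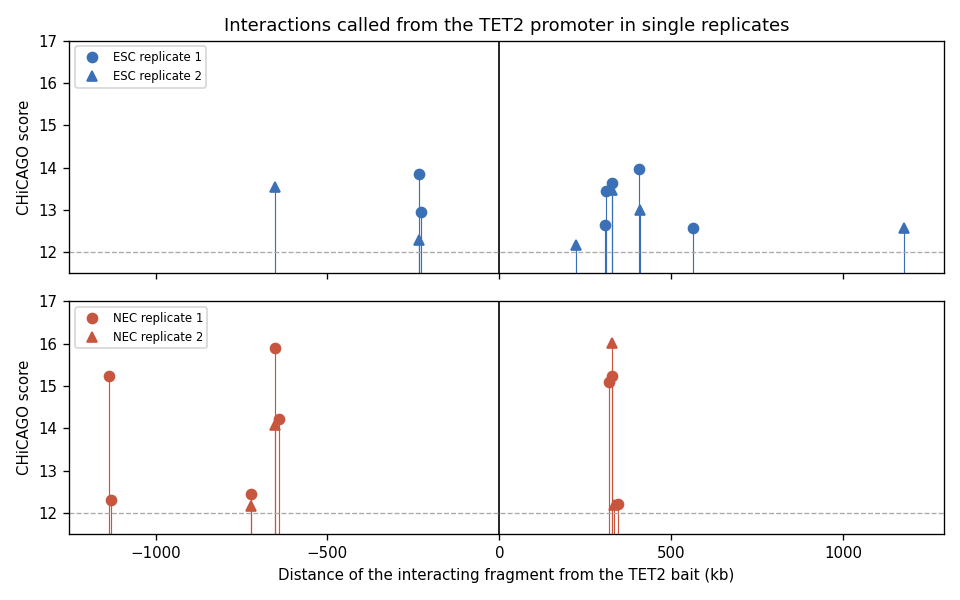
CHiCAGO scores (vertical axis, with the threshold of 12 as a dashed line) of the fragments called from the *TET2* bait in single replicates, by distance from the bait in kb, with ESCs above and NECs below. The fragment 328 kb downstream carries a score from each of the 4 replicates, and the fragment 653 kb upstream has 1 score in ESCs and 2 in NECs.

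The other promoters had few contacts called in both replicates of a cell type. *TET1* contacted the fragment that holds the start of *SLC25A16*, a mitochondrial carrier gene, at chr10:70268155-70288960 in both NEC replicates (13.4 and 13.8) and in neither ESC replicate. With that fragment as the bait, the *TET1* start fragment was not called in any list. Other fragments of the *TET1* gene were called from it, each in a single NEC replicate and in neither ESC replicate. *SLC25A16* had less RNA in NECs (log2 fold change −0.69, edgeR adjusted p = 0.0358), as did *TET1*. *TET3* contacted chr2:74332187-74337238, a fragment with an exon of *TET3* in the annotation, in both ESC replicates (12.8 and 13.3) and in neither NEC replicate.

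The *DNMT1* promoter contacted fragments that hold other promoters. The *EIF3G* start fragment, chr19:10228245-10232980, was called at 14.9, 14.2 and 13.8 in ESC replicates 1 and 2 and NEC replicate 1. The fragment with the starts of *MRPL4* and *ICAM1*, chr19:10360796-10381518, was called in the same 3 replicates at 12.5, 14.9 and 13.2. The fragment with the starts of *PPAN* and *P2RY11*, chr19:10215285-10228244, was called in ESC replicate 2 at 19.6 and in the NEC replicates at 12.8 and 12.6. These 3 contacts were in the merged lists of both cell types. With those fragments as the baits, the *DNMT1* start fragment was not called in any list, but other fragments of the gene were. The *EIF3G* bait called chr19:10258851-10263855 in both ESC replicates (12.9 and 12.2) and in neither NEC replicate. The bait of *MRPL4* and *ICAM1* called chr19:10244928-10251840 in both ESC replicates (13.0 and 12.3) and in NEC replicate 2 (12.45). *PPAN* (log2 fold change −1.16, adjusted p = 0.000374), *MRPL4* (−0.90, adjusted p = 0.000365) and *P2RY11* (−0.69, adjusted p = 0.00801) fell by edgeR. *EIF3G* (−0.23, adjusted p = 0.064) and *ICAM1* (0.18, adjusted p = 0.578) did not pass, nor did *DNMT1*. The spans of *PPAN* and *P2RY11* overlap.

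*DNMT3A* contacted the start of *DTNB*, 327 kb away at chr2:25890590-25898412, in both ESC replicates (12.8 and 14.3) and in NEC replicate 1 (15.9). With the *DTNB* fragment as the bait, the *DNMT3A* start fragment was not called in any list. That bait did call chr2:25445750-25460232, which overlaps the *DNMT3A* gene, in both ESC replicates (13.68 and 13.85) and in no NEC list. *DTNB* rose (log2 fold change 0.51, edgeR adjusted p = 0.00796) while *DNMT3A* fell. *DNMT3L*, *UHRF1* and *TDG* had no PIR called in both replicates of either cell type, and the baits of *UHRF1* and *TDG* also hold the starts of *ARRDC5* and *C12orf73*. The start of *DNMT3B* lies in the fragment chr20:31335456-31350805, which is not a bait, so its contacts could be seen only from other promoters. The neighbouring *COMMD7* bait reached 4 fragments of the *DNMT3B* gene in the merged ESC list, with scores from 12.8 to 14.5, and the start fragment in the merged NEC list at 12.7. None of these was called in both replicates of a cell type, and *COMMD7* itself had a log2 fold change of −0.02 (edgeR adjusted p = 0.925).

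The profiles most like those of *TET2*, *DNMT3L* and *DNMT3B* were sought by the Euclidean distance of centred log2 CPM over the 4 RNA-seq libraries. Nearest to *TET2* were *DOCK11* (distance 0.16), *CNIH2* (0.17), *FZD2* (0.18), *TP53INP1* (0.19) and *PBXIP1* (0.20). Nearest to *DNMT3L* were *PPP1R3B* (0.33), *EDIL3* (0.39), *PDK1* (0.46), *RP4-559A3.7* (0.49) and *ARSE* (0.51), although the profile of *DNMT3L* in NECs rests on 1 read and the prior count, so this order carries little weight. *DNMT3B*, added after its values had been seen, was closest to *DMKN* (0.08), *RP5-862P8.2* (0.12), *KAL1* (0.18), *ALPK3* (0.19) and *GYLTL1B* (0.23). With 4 libraries in 2 groups, many genes share such a profile.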

How the data were processed

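RNA-seq counts and PCHi-C interaction lists were analysed for H9 ESCs and day 7 NECs, 2 biological replicates each. The conventional Hi-C libraries were not analysed here. The authors trimmed the RNA-seq reads, aligned them with TopHat (TopHat2 2.0.8b and Bowtie 1.0.0 in the submitters' processing notes) to GRCh37 and counted them per Ensembl gene in SeqMonk, ignoring strand. The deposited counts are raw whole numbers that sum the isoforms of a gene. The authors mapped the PCHi-C reads with HiCUP and scored pairs of HindIII fragments with CHiCAGO, and the deposited lists hold a score for each pair at or above 12, for each replicate (technical replicates of ESC replicate 2 combined) and for merged replicates.

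Counts were normalised by TMM and fitted with edgeR 4.0.16 in R 4.3.3, with genes kept by filterByExpr at a minimum count of 10. SEs are the log2 fold change over the root of its F statistic. Library totals were between 19234087 and 25356382, and n = 2 sets the precision. PIR numbers and scores were described without a test, and an exact permutation test of 2 replicates against 2 could not reach the threshold of 0.05. Interaction lists were read in Python 3.11.15. Baits, fragments and exons were placed with the GRCh37 genome and annotation, with 1 list gene (*UHRF1*) matched by symbol, and promoter windows were cut from that genome at the gene starts of the count table, for 7 members and for all protein-coding genes. The fit was tested on simulated data.

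Named genes were all 9 members, up to 3 risers and 3 fallers per pathway list among those that passed at an average log2 CPM of at least 2, list genes needed as background, the 5 nearest profiles above an average log2 CPM of 4, and gene starts contacted in both replicates of a cell type. Some list genes and 1 promoter window are not reported here. Members and lists were chosen with earlier results of these data known. Alternatives were DESeq2 1.42.0 with its Wald test, its size factors, library size alone, other count filters, the replicate block, each library left out, a score of 15, shared PIRs within 10 kb, bait fragments left out and longest transcript length.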

Additional observations from a re-analysis of the deposited data

How the results depend on the processing

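With each of the alternatives that kept all libraries, 7 of the 9 enzymes passed and 3 were called. With 1 library left out, 5 to 8 passed and 2 to 3 were called, and the genes called over the whole table stayed within 1.5 times the 3697 reported. Of 90 log2 fold changes of members under alternatives, 85 kept their direction and side of the adjusted p threshold. *TET2* without ESC replicate 2 (1.28) is among them, but lost its call through the fold change. *DNMT3A* and *TET3* no longer passed without ESC replicate 2, and *DNMT1* passed without NEC replicate 2. *UHRF1* turned to 0.004 with library size alone, and with 1 library left out it ranged from −0.19 to 0.066, its value without NEC replicate 1, none past the test. Across alternatives *DNMT3B* ranged from −3.29 to −2.39, *TET1* from −1.05 to −0.88, *TET2* from 1.28 to 1.93 and *TDG* from −1.21 to −1.09. Library size alone moved the median of all genes to 0.07. With the replicate number as a block, 3698 genes were called and the members' counts were again 7 and 3. The numbers gave no sign of pairing, with a correlation of 0.06 between the replicate deviations of ESCs and NECs, so they share only a number. The interaction counts depended on the threshold. At a score of at least 15 the members kept 5 ESC and 8 NEC PIRs, of which 3 were shared, and without fragments that are baits they had 14 and 11. With single replicates they had 24 to 29 in ESCs and 12 to 23 in NECs, and 2 to 12 shared. PIRs within 10 kb counted as shared gave 15 in place of 10. Counting trans interactions added none. The depth behind the scores is unknown. The cause of these shifts was not tested.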

Other observations

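Genes that guard imprints or recruit methylation did not move as a block. Of 10 such genes 8 had enough reads to be tested. Of these, 4 passed with higher RNA in NECs, 3 with lower RNA and 1 did not pass. Over all genes tested 31.5% passed higher and 29.7% lower. The list had a median log2 fold change of 0.17. The median was negative with a minimum count of 5 (−0.14), with only all-zero genes removed (−0.13), without NEC replicate 1 (−0.06) and without NEC replicate 2 (−0.20). *ZNF445*, a zinc finger protein of imprinted regions, rose by 0.64 on the log2 scale (edgeR adjusted p = 0.00125), and the H3K36 methyltransferase *NSD1* (−0.65, adjusted p = 0.00593) and the corepressor *TRIM28* (−0.44, adjusted p = 0.0113) fell by edgeR. Without ESC replicate 1, and likewise without ESC replicate 2, 1 gene passed in each direction. *DPPA3*, which keeps UHRF1 off chromatin in germ cells and early embryos, had 12 and 10 reads in the ESC libraries and 0 in both NEC libraries, and was not tested.

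Germline genes known to be silenced by promoter methylation were scarcely expressed in either cell type. Of 10, 4 (*DDX4*, *SYCE1*, *HORMAD1* and *SLC25A31*) had 0 reads in all libraries and 3 had enough reads to be tested. Over all genes tested 31.5% passed higher and 29.7% lower. The meiotic genes *TEX14* (−1.36, adjusted p = 0.0161) and *SYCP3* (−0.96, adjusted p = 0.0311) fell by edgeR, and *DAZL* did not pass (0.41, adjusted p = 0.583). Neither fall held in all fits, since 0 of the list passed without ESC replicate 2, without NEC replicate 1 or, with all libraries, in DESeq2's test. *MAEL*, below the count filter used, had 2 and 4 reads in the ESC libraries and 10 in each NEC library. With a minimum count of 5, 1 gene of the list passed with higher RNA.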
